A study of Mus musculus with 12 samples.

Results

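Oxidative phosphorylation genes are the nuclear genes for the 5 enzyme complexes that oxidize NADH and succinate in the inner mitochondrial membrane and make ATP. They were taken by gene symbol alone, as every symbol that begins with Ndufa, Ndufb, Ndufc, Ndufs or Ndufv, with Uqcr, with Cox followed by 4 to 8, or with Atp5, and the symbols Sdha to Sdhd. The rule found 92 of the 24421 genes in the files: 44 for complex I, 4 for complex II, 8 for complex III, 20 for complex IV and 16 for complex V. It also takes in the 7 complex I assembly factors named Ndufaf, the assembly genes Atp5sl and Cox7a2l, and 8 forms of complex IV genes that other tissues use. Of the 92 genes, 86 averaged 0.5 FPKM or more in the 12 libraries and entered the tests. The other 6 were Cox4i2, Cox6a2, Cox7b2, Cox8c and Ndufa4l2, which stayed low in every library, and Ndufs5, a complex I accessory subunit gene that is listed at 0 in all 12. FPKM is the number of sequenced fragments per kilobase of transcript, scaled to the number of fragments in the library, so levels of different genes can be set side by side.

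The mice were TRAMP animals (strain C57BL/6-Tg(TRAMP)8247Ng/J), which carry SV40 T antigens under the prostate-directed probasin promoter and develop prostate cancer, or wild type C57BL/6 animals, on AIN93M diet. The tumor library came from 1 TRAMP mouse of 24 weeks on control diet, from an unknown lobe. TRAMP mice whose diet held phenethyl isothiocyanate (PEITC, found in cruciferous vegetables) at 0.05% by weight gave 2 prostate libraries at 24 weeks and 2 at 16 weeks. On control diet there were 2 TRAMP libraries of each age, 2 wild type libraries of 24 weeks and 1 of 16 weeks. Prostate libraries were made from the ventral and dorsolateral lobes together, so each is a mixture of epithelium, stroma and other cells.

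Complex I passes electrons from NADH to ubiquinone and complex II does so from succinate; complex III hands them on to cytochrome c and complex IV to oxygen. Complexes I, III and IV pump protons as they do so, and complex V, the ATP synthase, uses the returning protons to make ATP. Each of these complexes except complex II joins subunits encoded in mitochondrial DNA to nuclear subunits, and many nuclear subunits of complexes I and IV are accessory parts around a catalytic core. The prostate is known for an unusual use of mitochondria: its secretory cells export citrate rather than oxidize all of it. The subunits encoded in mitochondrial DNA are not used here.

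Promoters of these genes are known to bind the factors NRF1, ETS family members such as GABP, and YY1, so the windows were searched for the core letters of their motifs. RefSeq start sites (GRCm38.p6) gave 78 windows, each from 250 bases before to 50 after a start, for 73 of the 92 genes. The NRF1 letters GCGCA, then any base, then GCGC, on either strand, stood in 25.6% of these windows and in 4.60% of all 32851 windows of the same length. The ETS letters CCGGAAG stood in 21.8% against 8.86%, and the YY1 letters AAGATGGCG in 8.97% against 1.40%, also on either strand. At least 1 of the 3 stood in 48.7% of the oxidative phosphorylation windows, against 13.6% of all windows. Where TRAMP and wild type mice of 24 weeks are compared further on, 13 of the 25 lower genes with a window held a motif (52.0%), as did 23 of the 44 that did not pass the test (52.3%). The 6 windows printed here are those of a gene that was lower and of one that was higher in TRAMP mice and held no motif (Ndufa1 and Ndufaf2), and of a lower gene (Sdha) and 3 genes that did not pass at 24 weeks (Uqcrc1, Cox6a1, Atp5h) whose windows hold motifs. The sequences run 5′ to 3′ on the gene's strand, and capitals mark NRF1 letters (10 bases) and ETS letters (CCGGAAG or its reverse complement CTTCCGG).
Ndufa1 (chrX:37191189-37191488, minus strand): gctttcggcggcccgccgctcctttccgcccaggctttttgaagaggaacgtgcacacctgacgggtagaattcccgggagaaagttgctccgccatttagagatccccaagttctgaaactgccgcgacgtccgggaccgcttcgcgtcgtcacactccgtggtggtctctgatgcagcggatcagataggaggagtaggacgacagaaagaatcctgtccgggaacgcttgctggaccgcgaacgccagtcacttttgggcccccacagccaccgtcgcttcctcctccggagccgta
Ndufaf2 (chr13:108158576-108158875, minus strand): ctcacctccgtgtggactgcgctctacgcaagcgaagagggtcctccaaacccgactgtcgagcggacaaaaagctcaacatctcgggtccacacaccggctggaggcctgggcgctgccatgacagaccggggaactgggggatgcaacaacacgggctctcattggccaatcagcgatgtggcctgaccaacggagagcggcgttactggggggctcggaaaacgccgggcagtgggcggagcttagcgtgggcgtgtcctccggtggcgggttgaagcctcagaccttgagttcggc
Sdha (chr13:74350191-74350490, minus strand): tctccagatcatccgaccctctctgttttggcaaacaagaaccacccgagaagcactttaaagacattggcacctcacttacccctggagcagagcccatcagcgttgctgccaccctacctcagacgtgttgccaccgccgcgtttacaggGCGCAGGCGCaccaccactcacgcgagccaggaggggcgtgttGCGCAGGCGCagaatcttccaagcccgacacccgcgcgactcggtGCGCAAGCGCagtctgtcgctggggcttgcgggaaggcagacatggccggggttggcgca
Uqcrc1 (chr9:108936398-108936697, plus strand): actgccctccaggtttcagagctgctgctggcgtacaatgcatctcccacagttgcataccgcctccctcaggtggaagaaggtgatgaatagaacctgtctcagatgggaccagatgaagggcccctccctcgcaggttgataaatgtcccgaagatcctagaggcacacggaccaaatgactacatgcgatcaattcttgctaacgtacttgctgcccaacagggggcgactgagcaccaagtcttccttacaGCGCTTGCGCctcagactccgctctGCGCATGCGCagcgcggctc
Cox6a1 (chr5:115348909-115349208, minus strand): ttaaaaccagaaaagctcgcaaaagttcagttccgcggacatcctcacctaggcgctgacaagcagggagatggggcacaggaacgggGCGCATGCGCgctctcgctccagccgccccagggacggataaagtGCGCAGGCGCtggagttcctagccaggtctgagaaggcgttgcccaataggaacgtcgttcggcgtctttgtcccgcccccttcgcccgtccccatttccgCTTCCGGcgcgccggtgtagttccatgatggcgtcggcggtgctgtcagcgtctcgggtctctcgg
Atp5h (chr11:115419870-115420169, minus strand): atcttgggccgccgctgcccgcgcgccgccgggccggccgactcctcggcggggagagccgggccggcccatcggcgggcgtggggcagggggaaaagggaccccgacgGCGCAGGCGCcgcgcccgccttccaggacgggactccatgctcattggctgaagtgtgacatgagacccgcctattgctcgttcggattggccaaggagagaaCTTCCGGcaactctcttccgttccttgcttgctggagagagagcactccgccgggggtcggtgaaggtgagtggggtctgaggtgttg

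These genes were among the well expressed genes of the prostate in every group. Mean levels over the 12 libraries went up to 542 FPKM for Atp5b, which encodes a subunit of the catalytic hexamer of ATP synthase, and 527 FPKM for Cox4i1, the ubiquitous form of complex IV subunit 4. In complex I they ran between 9.85 FPKM (Ndufb4) and 243 FPKM (Ndufa3), in complex II between 77.4 FPKM (Sdhd) and 129 FPKM (Sdha), and in complex III between 104 FPKM (Uqcrc2) and 262 FPKM (Uqcrh), assembly factors, tissue forms and Ndufs5, a complex I subunit gene listed at 0 in every library, left aside. The 3 genes for the c subunit of the rotor ring of ATP synthase, which yield 1 and the same mature protein, had unequal FPKM values. Atp5g3 averaged 328 FPKM, Atp5g1 34.5 FPKM and Atp5g2 4.41 FPKM. Atp5g1, Atp5g2 and Ndufb4 have close sequence copies, as given further on, so their levels are uncertain. Together the 92 genes took 2.60% to 2.78% of all FPKM in a library. That share was 2.63 and 2.77% in TRAMP prostates at 24 weeks, against 2.73 and 2.67% in wild type of that age, so the groups overlapped in it.

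The libraries differed in ways that touch every value below. FPKM summed to 395678 to 410802 in the 9 TRAMP libraries, tumor included, against 458256 to 467650 in the 3 wild type libraries. Depth in reads is unknown. Relative depth, from the smallest steps between values, was 0.635 in the 16-week wild type library when the deepest library, replicate 0 of TRAMP at 24 weeks, is set to 1. It was 0.681 and 0.694 in 24-week wild type, against 0.949 in the other 24-week TRAMP library on control diet. TRAMP on control diet at 16 weeks had 0.926 and 0.895, so wild type prostates were shallower than control-diet TRAMP prostates at both ages. The tumor had 0.698. FPKM of 10 luminal secretory markers of the prostate summed to 3761 to 8144 in the TRAMP libraries, against 24032 to 27632 in wild type. Sbp, a secretory protein gene of the prostate, was present in all, at 697 to 4166 FPKM in TRAMP, against 14197 to 16412 in wild type. All 8 smooth muscle markers together had 317 to 762 in TRAMP, against 875 to 1044 in wild type, and 7 macrophage markers 84.2 to 275 against 52.3 to 65.2. The 5 basal epithelial markers summed to 29.6 to 81.7 in TRAMP, against 108 to 139 in wild type. The 16-week wild type library also held seminal vesicle transcripts (a sum of 7813 over 6 markers, at most 8.02 in the other 11) and the most skeletal muscle RNA (138 over 12 markers, against 24.2 to 56.5). The part of these differences in the results was not tested, and in such mixed tissue fewer cells of a type and less RNA per cell cannot be told apart.

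The first comparison asks whether the TRAMP prostate at 24 weeks uses these genes at other levels than the wild type prostate. Many passed as lower in TRAMP, by modest amounts, and few as higher. Limma with Benjamini-Hochberg adjustment over 13375 genes called 36 of the 86 lower (41.9%) and 3 higher, at an adjusted p under 0.05; over all genes tested 22.0% were called lower and 23.0% higher. The median log2 fold change of the 86 was -0.17, a decrease of 10.9%, while that of all genes was -0.00, and 70 of the 86 lay below 0; rescaled to a common sum of FPKM, the median of the 86 was 0.02. In 61 of the 86 both TRAMP libraries were below both wild type libraries, and in 3 both were above (70.9% and 3.49% of the 86); over all genes 36.5% and 36.7% separated in these ways. Summed over its genes, complex I had 3618 and 3843 FPKM in TRAMP, against 4347 and 4218 in wild type, complex III 1203 and 1296 against 1462 and 1470.1, and complex IV 2554 and 2816 against 3235 and 3132. Complex II had 370.1 and 364 FPKM in TRAMP, against 431 and 428 in wild type, and complex V 2689 and 2890.4 against 3017 and 3008. On the deposited scale each complex was thus lower in both TRAMP libraries. On a common sum the median changes of complexes I, IV and V were above 0, as given further on. Whether the libraries of a group came from separate animals is not stated in the labels, so the p-values cover only their spread, which may be technical.

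**Figure D1:**
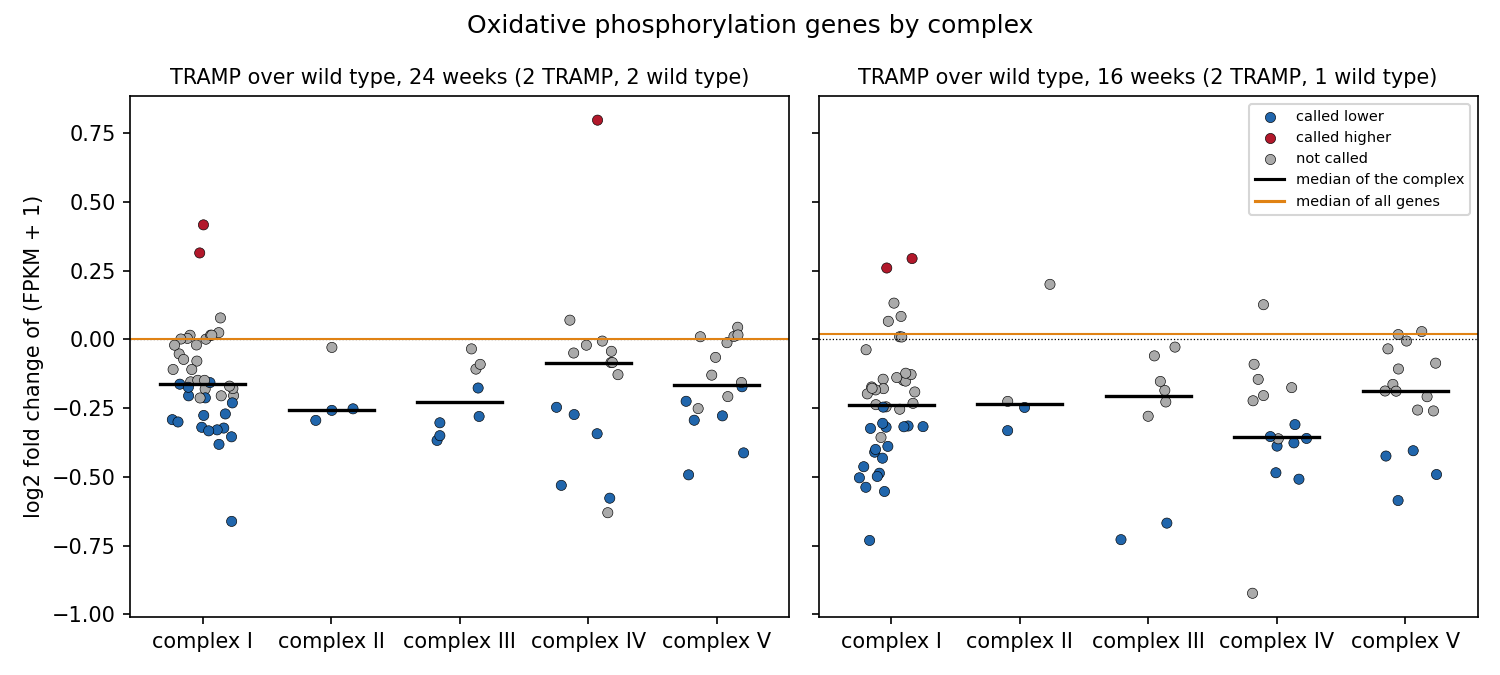
Each point is 1 of the 86 tested genes, placed by its complex (x axis) and its log2 fold change of (FPKM + 1), TRAMP over wild type (y axis), at 24 weeks on the left and 16 weeks on the right; black bars are the median of a complex and the orange line the median of all genes. Most points lie below the orange line in each complex, with medians between -0.26 (complex II) and -0.08 (complex IV) at 24 weeks; on a common sum the 24-week medians of complexes I, IV and V were above 0 (0.03, 0.08 and 0.03).

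Ndufa1, which encodes a small subunit that complex I needs for its assembly, had the largest decrease among the called genes. It had 152 and 164 FPKM in TRAMP prostates at 24 weeks, against 256 and 245 in wild type (ENSMUSG00000016427.7, mm10 chromosome X, 37187588 to 37191163, minus strand). Both TRAMP libraries were far below both wild type libraries. The log2 fold change was -0.66 (SE 0.075, limma adjusted p = 0.000341), a mean of 158 ± 8.25 FPKM in TRAMP against 250.2 ± 8.0 in wild type (SD, n = 2 each). In the other libraries it had 121 FPKM in the tumor, 153 and 145 with PEITC at 24 weeks, 171 and 165 with PEITC at 16 weeks and 147 and 168 in TRAMP at 16 weeks, against 261 in the 16-week wild type library. All 9 libraries with the transgene were thus below all 3 without it, and the tumor was the lowest.

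Among the other complex I genes, 16 more were called lower at 24 weeks. Of the core subunits that carry the redox centres, Ndufv1, which binds NADH, had 98.3 and 95.9 FPKM in TRAMP, against 97.7 and 94.6 in wild type. The iron-sulfur subunit gene Ndufs1 had 29.7 and 26.8 FPKM in TRAMP, against 26.0 and 27.4 in wild type. Neither passed the test (log2 fold change 0.01, limma adjusted p = 0.831, and 0.08, adjusted p = 0.372), and for both the groups overlapped. The partner iron-sulfur subunit gene Ndufv2 was lower (-0.27, limma adjusted p = 0.00431). The accessory subunit gene Ndufa7 had 87.5 and 96.0 FPKM in TRAMP, against 121 and 118 in wild type (-0.38, SE 0.060, adjusted p = 0.00157), with all 9 TRAMP libraries below all wild type ones. Further accessory subunit genes called lower included Ndufa11 (-0.35), Ndufv3 (-0.33), Ndufb11 (-0.32) and Ndufb9 (-0.28).

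Of the 3 genes called higher at 24 weeks, 2 were assembly genes. Of the 9 assembly genes tested, Cox7a2l was lower, 2 were higher and 6 did not pass, with a median of 0.00. Over all genes tested 22.0% were lower and 23.0% higher. The 2 of 9 are close to that share, so they are no trait of assembly genes. The 22 core subunit genes had 11 lower and a median of -0.17 (0.02 on a common sum). The 37 accessory subunit genes had 19 lower and a median of -0.21 (-0.01 on a common sum). Ndufaf2, an assembly factor of complex I, had 54.3 and 51.1 FPKM in TRAMP at 24 weeks, against 43.3 and 41.0 in wild type (ENSMUSG00000068184.7, mm10 chromosome 13, 108002715 to 108158623, minus strand). Both TRAMP libraries were higher, with a log2 fold change of 0.31 (SE 0.062, limma adjusted p = 0.00483). Atp5sl, which despite its name encodes an assembly factor of the distal membrane arm of complex I, had 12.6 and 12.5 FPKM in TRAMP and 9.54 and 8.77 in wild type. Its log2 fold change was 0.42 (SE 0.068, adjusted p = 0.00203), and it was the only one of the 86 genes with all 9 TRAMP libraries above all 3 wild type libraries (21.2% of all genes tested separated in this way). In the opposite direction, 41 of the 86 (47.7%) had all 9 TRAMP libraries below all 3 wild type libraries, against 19.2% of all genes tested.

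**Figure D2:**
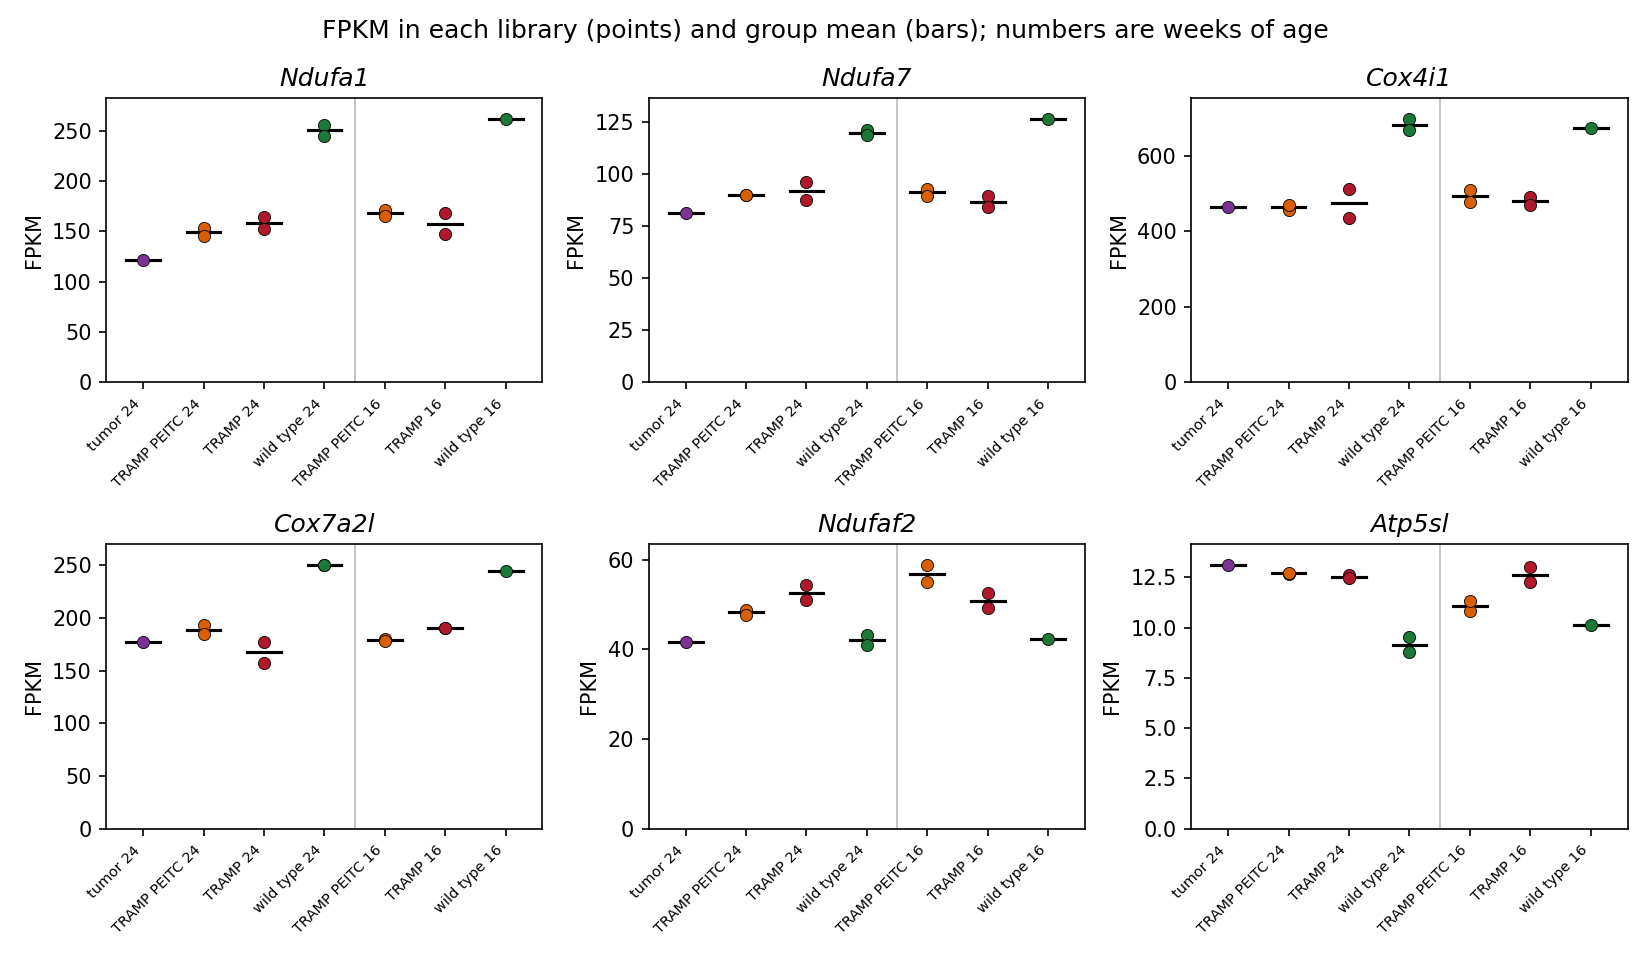
FPKM of 6 genes (y axes, from 0) in each library (points), with the group mean (bars), ordered along the x axis as tumor, TRAMP on PEITC, TRAMP on control diet and wild type at 24 weeks, then the 16-week groups. For Ndufa1, Ndufa7, Cox4i1 and Cox7a2l the wild type libraries lie above all others; for Atp5sl they lie below all others, and for Ndufaf2 the tumor (41.7 FPKM) lies among the wild type libraries.

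In complex II, the enzyme shared with the tricarboxylic acid cycle, 3 of the 4 genes were lower in TRAMP at 24 weeks. Sdha, the flavoprotein that oxidizes succinate, had 136 and 119 FPKM in TRAMP, against 157 and 155 in wild type. Sdhb, its iron-sulfur partner, had 74.1 and 82.6 FPKM in TRAMP, against 92.0 and 94.7 in wild type. The groups did not overlap for either gene, and the log2 fold changes were -0.29 (SE 0.068, limma adjusted p = 0.00944) and -0.25 (SE 0.064, adjusted p = 0.0142). The membrane anchor gene Sdhc changed by -0.26 (adjusted p = 0.00774), whereas Sdhd, the other anchor, gave -0.03 (adjusted p = 0.693), with 75.2 and 76.6 FPKM in TRAMP against 78.1 and 76.9 in wild type.

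In complex III, 5 of 8 genes were lower, among them the small subunit genes Uqcr11 and Uqcrq. Uqcr11 changed by -0.37 (limma adjusted p = 0.00178) and Uqcrq by -0.35 (adjusted p = 0.00230). Uqcrfs1, the Rieske iron-sulfur protein, had 113 and 125 FPKM in TRAMP, against 140.5 and 154 in wild type, a change of -0.30 (SE 0.073, adjusted p = 0.0114) with no overlap. Uqcrc1, one of the large matrix-facing subunits, had 110.4 and 112 FPKM in TRAMP, against 114 and 114 in wild type, and did not pass (-0.03, adjusted p = 0.674).

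In complex IV, the oxygen-using enzyme, 5 of 15 genes were lower and 1 was higher. Cox4i1 had 435 and 513 FPKM in TRAMP at 24 weeks, against 698 and 669 in wild type (ENSMUSG00000031818.12, mm10 chromosome 8, 120668222 to 120674207, plus strand). Its log2 fold change was -0.53 (SE 0.086, limma adjusted p = 0.00190), and all 9 TRAMP libraries were below all 3 wild type ones. Cox8a (-0.34), Cox7b (-0.27) and Cox6c (-0.25), ubiquitous subunit genes, were also lower. Cox8a had 299 and 331 FPKM in TRAMP, against 413 and 385 in wild type, with no overlap. Cox5a had 135 and 145 FPKM in TRAMP, against 151 and 146 in wild type. Cox7a2 had 113 and 116 FPKM in TRAMP, against 117 and 113 in wild type. Cox6a1 had 342 and 383 FPKM in TRAMP, against 382 and 385 in wild type, an overlap. Ndufa4, first assigned to complex I and later to complex IV, had 304 and 324 FPKM in TRAMP, against 340.0 and 347 in wild type. Neither Cox5a (-0.08, adjusted p = 0.310), Cox7a2 (-0.01, adjusted p = 0.933), Cox6a1 (-0.08, adjusted p = 0.358) nor Ndufa4 (-0.13, adjusted p = 0.135) passed at this age. Cox7a2l, classed as an assembly factor of supercomplexes (joined respiratory complexes), had 158 and 177 FPKM in TRAMP, against 249.7 and 249.9 in wild type. Whether its protein acts in this way in these mice was not tested. The TRAMP libraries were clearly below the wild type ones, at -0.58 on the log2 scale (SE 0.064, adjusted p = 0.000294).

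The forms of complex IV genes that other tissues use were low throughout. Cox4i2, the form of subunit 4 known from lung and low oxygen, ran from 0 to 0.493 FPKM over the 12 libraries, and the testis forms Cox7b2 and Cox8c reached at most 0.0622 and 0.310 FPKM. Ndufa4l2, a paralog of Ndufa4 that low oxygen is known to induce, stood at 0.697 FPKM in the tumor and at 0.228 to 1.07 FPKM in the other libraries. Cox6a2, the heart and skeletal muscle form of subunit 6a, stood at 1.57 FPKM in the 16-week wild type library and at 0.0512 to 0.611 in the others; that library also had the most skeletal muscle marker RNA, with the muscle genes Ckm at 3.90 and Myh4 at 2.77 FPKM, and its part was not tested. Cox8b, another muscle form that brown fat also uses, had 0.458 and 4.0 FPKM in TRAMP on PEITC at 24 weeks and 0.129 to 2.15 FPKM in the other 10 libraries. Cox6b2, the testis form of subunit 6b, had 3.48 FPKM in the tumor and 1.22 to 2.57 in the others. Beside Cox8b, all 9 adipocyte markers together had 29.9 and 369 FPKM in the same PEITC libraries, against 18.8 to 244 in the others, and the brown fat gene Ucp1 stood at 2.06 FPKM in the second of them and at most 0.670 elsewhere; their part was not tested. Cox7a1, the heart and skeletal muscle form of subunit 7a, had 4.87 and 5.22 FPKM in TRAMP at 24 weeks, against 3.89 and 1.48 in wild type. It passed as higher (0.80, SE 0.27, limma adjusted p = 0.0420), but the wild type pair was far apart, and against the 16-week wild type library (5.52 FPKM) the 16-week TRAMP libraries (4.34 and 3.82 FPKM) had less, without passing (adjusted p = 0.426).

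In complex V, 6 of 16 genes were lower at 24 weeks. Atp5a1, of the catalytic hexamer, had 312 and 312 FPKM in TRAMP, against 388 and 378 in wild type, a log2 fold change of -0.29 (SE 0.053, limma adjusted p = 0.00322), but of 0.04 after quantile normalization. Its partner in the hexamer, Atp5b, had 527 and 541 FPKM in TRAMP, against 551 and 567 in wild type, and did not pass (-0.07, adjusted p = 0.442). The proteins of these 2 genes alternate in the hexamer in equal number; here the first passed and the second did not, and the difference between the genes was not tested. Of the c subunit genes, Atp5g2 changed by -0.41 (adjusted p = 0.0246), whereas Atp5g3, the one with the highest FPKM, gave 0.04 (adjusted p = 0.598). Atp5s, which encodes coupling factor B, had 7.94 and 7.04 FPKM in TRAMP, against 11.8 and 10.1 in wild type (-0.49, SE 0.11, adjusted p = 0.00931).

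The size of this decrease depended on how the libraries were put on 1 scale. Rescaling all libraries to the same sum, as TPM does, gave a median of 0.02 for the 86 genes at 24 weeks, against 0.17 for all genes, and 6 lower and 15 higher calls; over all genes 11.3% were then lower and 36.1% higher. Scaling with the 50 most abundant genes left out gave -0.06 against 0.09 for all genes, with 14 lower and 3 higher calls (15.0% and 29.8% over all genes). After quantile normalization the medians were -0.04 for these genes and -0.05 for all genes, with 9 lower and 11 higher calls (24.5% and 19.2% over all genes). Median-ratio scaling and corrections for gene length and GC content left medians of -0.15, -0.15 and -0.17, with 0.01, 0.00 and -0.00 for all genes, and 28, 37 and 35 lower calls (21.1%, 23.5% and 22.6% over all genes). Higher calls stayed at 3 under these 3 (23.9%, 23.4% and 22.7% over all genes), and centring on the median of these genes left 11 lower and 3 higher (11.2% and 29.0%). By complex, the 24-week median stayed below 0 under all 8 scalings for complex II (-0.26 to -0.06) and complex III (-0.23 to -0.04), while on a common sum it was 0.03 for complex I, 0.08 for complex IV and 0.03 for complex V. With 8 scalings in all, 1 of which sets the median of these genes equal in every library, 5 calls passed in each: Ndufa1, Cox7a2l and Ndufa7 lower, and Ndufaf2 and Atp5sl higher; every other call at 24 weeks was lost under at least 1 of them. The log2 fold change of Ndufa1 ran over -0.66 to -0.43 and that of Cox7a2l over -0.58 to -0.33. Ndufa7 ran over -0.38 to -0.19, Ndufaf2 over 0.29 to 0.50 and Atp5sl over 0.32 to 0.59. Atp5sl has no length or GC value here, so the corrections for gene length and GC content left its values as they were and could not test it. Cox4i1 kept its direction under the same 8 (over -0.58 to -0.15), with adjusted p of at most 0.0618. The number of lower calls also rested on single libraries: it was 20 without replicate 0 of TRAMP, 36 without replicate 2 of TRAMP, 22 without replicate 0 of wild type, 20 without replicate 1 of wild type, and 18 with only the 4 libraries of this comparison. Over all genes 17.8%, 16.9%, 17.9%, 15.3% and 15.2% were lower in the same order. The median of the 86 genes was -0.10 without replicate 0 of TRAMP and -0.23 without replicate 2.

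**Figure D3:**
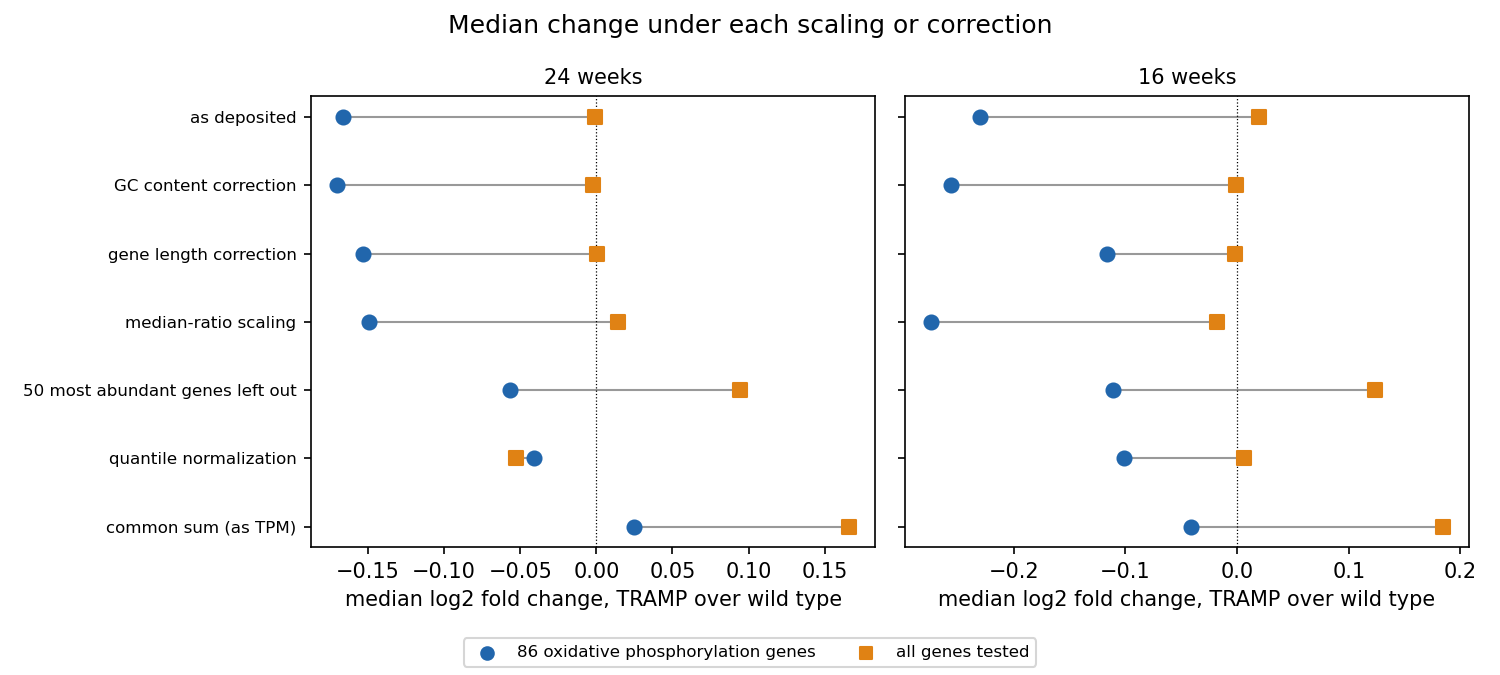
Median log2 fold change, TRAMP over wild type (x axis), of the 86 tested genes (blue circles) and of all 13375 genes (orange squares) under 7 ways to scale or correct the libraries (rows), at 24 weeks on the left and 16 weeks on the right. The circles lie left of the squares in every row except quantile normalization at 24 weeks (-0.04 against -0.05).

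At 16 weeks TRAMP prostates were set against 1 wild type library, which is assumed to vary like the replicated groups. Limma called 33 of the 86 genes lower (38.4%) and 2 higher; over all genes 15.4% were lower and 18.1% higher. The median was -0.23, a decrease of 14.8%, with 0.02 for all genes, and 75 of the 86 lay below 0; centred on these genes it was 0.03, with 0.28 for all genes. Both TRAMP libraries were below the wild type library for 70 of the 86 (81.4%) and above it for 7 (8.14%); over all genes 40.4% and 44.2% did so. By complex, 18 of 43 were lower in complex I, 2 of 4 in complex II, 2 of 8 in complex III, 7 of 15 in complex IV and 4 of 16 in complex V. Of the genes lower at 16 weeks 21 were also lower at 24 weeks (63.6% of the 33 and 58.3% of the 36). Both genes higher at 16 weeks, Ndufaf2 and Atp5sl, were higher at 24 weeks too. The same sharing was not computed over all genes, so it cannot be called particular to these genes.

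Small subunit genes of complex III gave some of the largest decreases at this age. Uqcrq had 166 and 167 FPKM in TRAMP at 16 weeks, against 276 in wild type (-0.73 on the log2 scale, SE 0.072, limma adjusted p = 0.000384). Uqcr11 had 144 and 148 FPKM in TRAMP, against 233 in wild type (-0.67, SE 0.072, adjusted p = 0.000530). For both genes every TRAMP library of either age lay below every wild type library. Ndufa1 changed by -0.73 (SE 0.092, adjusted p = 0.000999). Atp5e, which encodes a small subunit of the central stalk of ATP synthase, had 231 and 224 FPKM in TRAMP, against 342 in wild type (-0.59, SE 0.12, adjusted p = 0.00711). Ndufaf2 had 49.3 and 52.6 FPKM in TRAMP, against 42.4 in wild type, and was higher (0.26, adjusted p = 0.0331), as was Atp5sl (0.29, adjusted p = 0.0297). In complex IV the decreases now included Cox6a1, with 343 and 323 FPKM in TRAMP against 436 in wild type (-0.39, adjusted p = 0.0110).

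Some of the 16-week values rest on the wild type library and on the scale. With the 24-week wild type pair as control, a choice made after seeing the data, 30 genes were lower and 2 higher (20.7% and 21.3% over all genes), with a median of -0.15. Lower calls numbered 18 after quantile normalization (15.4% over all genes), 20 with the top 50 genes left out (10.8%), 13 on a common sum (8.95%), 9 when centred on these genes (5.92%) and 12 with only the libraries of this comparison (7.96%). Under median-ratio scaling 39 genes were lower (18.0% over all genes) and 0 higher (16.1%), so neither higher call passed there. After the length and GC corrections 23 and 39 were lower (16.7% and 16.3%) and 3 and 2 higher (17.3% and 16.9%). Higher calls numbered 4 after quantile normalization (16.4%), 3 with the top 50 left out (25.5%), 5 on a common sum (31.2%) and 5 when centred (36.6%). Under all 8 scalings 7 calls passed at 16 weeks, all lower: Ndufa1, Uqcrq, Uqcr11, Ndufa2, Ndufa7, Ndufa3 and Ndufv3. The difference between the ages was tested directly, and 0 of the 86 genes passed (limma; 12 had an unadjusted p under 0.05; 0.329% of all genes were called with a more positive change at 24 weeks and 0.0374% with a more negative one). The smallest p was that of Ndufa3, an accessory subunit gene of complex I, with 244 and 249 FPKM in TRAMP and 262 and 259 in wild type at 24 weeks, and 214 and 209 in TRAMP and 300.4 in wild type at 16 weeks (a difference of 0.42 between the log2 fold changes, adjusted p = 0.127).

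The tumor library was compared with the TRAMP prostates of the same age and diet, and with wild type prostate. Against TRAMP prostate, limma called 4 of the 86 genes lower (4.65%) and 0 higher, while 6.17% of all genes were lower and 5.59% higher; 12 of the 86 had an unadjusted p under 0.05, and the median was -0.02 (0.05 when centred on these genes). The 4 genes all belong to complex I or its assembly, as do 44 of the 92 genes. The tumor is 1 library from an unknown lobe. Ndufa1 had 121 FPKM in the tumor, against 152 and 164 in TRAMP prostates (-0.38 on the log2 scale, SE 0.092, adjusted p = 0.0372). Ndufb9, an accessory subunit gene, had 179 FPKM in the tumor, against 223 and 229.8 in TRAMP prostates (-0.34, SE 0.073, adjusted p = 0.0261). Ndufv3, another accessory subunit gene, had 50.5 FPKM in the tumor, against 62.0 and 62.5 (-0.30, SE 0.071, adjusted p = 0.0349). For these 3 genes, picked by their calls, the tumor lay below every other library of the series, and the share of all genes that do so was not computed. The tumor lay below both TRAMP libraries for 36 of the 86 (41.9%) and above both for 20 (23.3%). Over all genes 41.0% and 38.5% did so. Ndufaf2 had 41.7 FPKM in the tumor, against 54.3 and 51.1 in TRAMP prostates (-0.33, SE 0.076, adjusted p = 0.0316), a value within the range of the wild type libraries. Without replicate 0 or without replicate 2 of TRAMP prostate 2 genes were lower (4.23% and 4.59% over all genes), and 0 were lower in a fit of only these 3 libraries (0.0% over all genes) or after centring on these genes' median (2.59%).

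Against wild type, 31 genes were lower in the tumor and 1 was higher, while 25.8% and 26.4% of all genes were; the median was -0.17 (0.03 when centred on these genes). This comparison shares the wild type libraries with the first one, so the likeness of their values is not separate evidence. Ndufa1 had 121 FPKM in the tumor, against 256 and 245 in wild type, a log2 fold change of -1.04 (SE 0.092, limma adjusted p = 8.54e-05); its FPKM in the tumor was 51.6% below the wild type mean. Ndufv3 had 50.5 FPKM in the tumor, against 79.3 and 78.2 in wild type (-0.63, SE 0.071, adjusted p = 0.000243). Ndufb9 had 179 FPKM in the tumor, against 266 and 283 in wild type (-0.61, SE 0.073, adjusted p = 0.000318). In each of the 3 the tumor was below both wild type libraries. Atp5g1, one of the c subunit genes, had 25.8 FPKM in the tumor, against 40.6 and 37.1 in wild type (-0.57, SE 0.13, adjusted p = 0.00621). Atp5sl was higher, with 13.1 FPKM in the tumor against 9.54 and 8.77 in wild type (0.48, SE 0.084, adjusted p = 0.00216). Under all 8 scalings 9 genes were lower (Ndufa1, Ndufv3, Ndufb9, Ndufa7, Sdha, Cox4i1, Cox7a2l, Uqcr11 and Ndufb11) and Atp5sl was higher, but in a fit of only the compared libraries Atp5sl did not pass. Lower calls numbered 29 under median-ratio scaling, 20 after quantile normalization, 25 with the top 50 genes left out, 14 on a common sum and 9 when centred (24.2%, 29.6%, 21.2%, 17.7% and 13.7% over all genes). Higher calls numbered 1, 10, 2, 7 and 7 in the same order (28.1%, 23.4%, 30.3%, 34.9% and 35.9% over all genes). The length and GC corrections gave 35 and 32 lower (26.8% and 25.9%) and 1 and 1 higher (27.2% and 26.4%). They left the values of Atp5sl as they were, since that gene has no length or GC value here.

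PEITC in the diet, the treatment under study, left these genes without a call. At 24 weeks limma called 0 of the 86 genes (6 at an unadjusted p under 0.05) and 0 of all genes (0.0% lower and 0.0% higher), with a median of -0.05, which was 0.00 without replicate 2 of the control diet and 0.04 when centred on these genes. At 16 weeks it called 0 of the 86 (7 at an unadjusted p under 0.05), while 0.00748% of all genes were lower and 0.0% higher, with a median of 0.01. Ndufa3 had the smallest p at both ages: 222 and 212 FPKM with PEITC against 244 and 249 on control diet at 24 weeks (-0.18, adjusted p = 0.474), and 260.0 and 243 with PEITC against 214 and 209 on control diet at 16 weeks (0.25, adjusted p = 0.438). The groups did not overlap at either age, but the signs were opposite. Ndufa1 gave -0.08 (SE 0.075) at 24 weeks and 0.10 (SE 0.075) at 16 weeks, and Cox4i1 -0.03 (SE 0.086) and 0.04 (SE 0.086). Both PEITC libraries of 24 weeks lay below both control libraries for 32 of the 86 genes (37.2%) and above them for 9 (10.5%); over all genes 20.8% and 23.7% did so. At 16 weeks 15 genes (17.4%) lay below and 19 (22.1%) above, while over all genes 21.2% and 21.0% did so. A p that misses the threshold with 2 libraries a group does not show that the diets act alike. The difference of the PEITC effect between the ages gave 0 calls among the 86 (12 at an unadjusted p under 0.05; 0.0% of all genes lower and 0.00748% higher). Between TRAMP prostates of 24 and 16 weeks on control diet, 0 of the 86 were called (10 at an unadjusted p under 0.05; 0.00748% of all genes lower and 0.0% higher), with a median of 0.00.

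**Figure D4:**
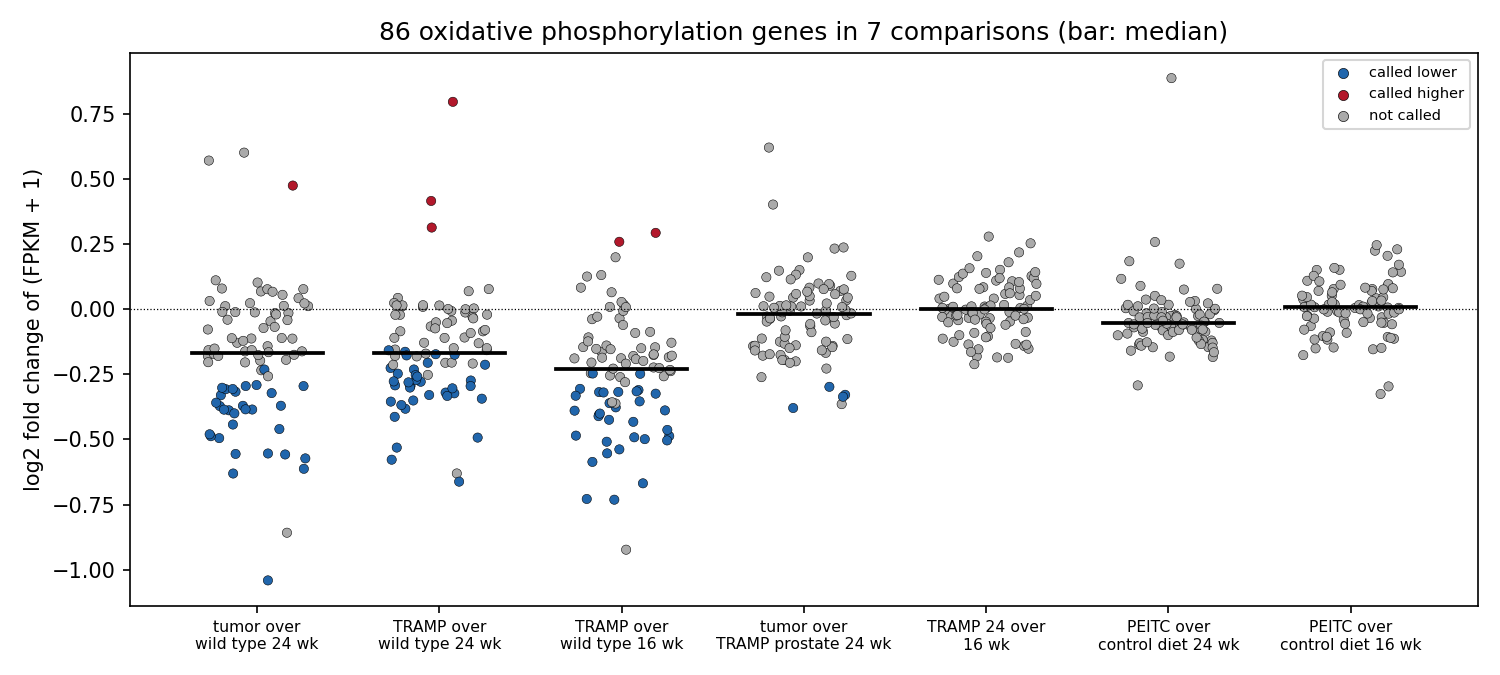
Log2 fold change of (FPKM + 1) of each of the 86 tested genes (points, y axis) in 7 comparisons (x axis); bars are medians and colours the limma call. The 3 comparisons against wild type have medians of -0.17, -0.17 and -0.23 and hold nearly all calls; the 4 comparisons among libraries with the transgene have medians between -0.05 and 0.01, with 4 lower calls in the tumor against TRAMP prostate.

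Other gene lists show where these genes stand among related ones in TRAMP against wild type; the lists were drawn up with earlier results of these data known, and the counts are descriptions. Cytosolic ribosomal protein genes, highly expressed genes like these, had 43 of 75 lower and 0 higher at 24 weeks (median -0.28), and 23 lower and 1 higher at 16 weeks (median -0.26); these medians were -0.04 and -0.00 after quantile normalization. Genes of the mitochondrial ribosome, which translates the subunits encoded in mitochondrial DNA, had 13 lower and 11 higher of 76 at 24 weeks (median 0.00) and 17 and 7 at 16 weeks (median -0.09). Tricarboxylic acid cycle genes had 3 lower and 1 higher of 16 at 24 weeks (median -0.00) and 0 and 3 at 16 weeks (median 0.05). Core subunit genes of the proteasome had 0 lower and 4 higher of 14 at 24 weeks (median 0.00) and 0 and 2 at 16 weeks (median -0.07). Assembly factors of the respiratory complexes had 7 lower and 3 higher of 38 at 24 weeks (median -0.02) and 8 and 2 at 16 weeks (median -0.14). Glycolysis genes had 4 lower and 3 higher of 15 at 24 weeks (median 0.09), with the lactate dehydrogenase gene Ldhb at -1.37 (limma adjusted p = 7.26e-05), and 3 and 0 at 16 weeks (median -0.22), with Ldhb at -1.96 (adjusted p = 8.61e-05).

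Of 15 regulators of mitochondrial biogenesis 2 were lower and 5 higher at 24 weeks (median 0.25) and 1 and 5 at 16 weeks (median 0.30). Nrf1, the factor whose motif was searched above, was higher at 24 weeks (0.37, limma adjusted p = 0.0176) and gave 0.30 at 16 weeks (adjusted p = 0.0952). Tfam, which packs and transcribes mitochondrial DNA, was higher at both ages (0.32, adjusted p = 0.0126, and 0.52, adjusted p = 0.00489). Tfb2m, a transcription factor of mitochondria, was lower at 24 weeks (-0.39, adjusted p = 0.0131). These regulator medians stayed above 0, at 0.10 to 0.42, under each scaling at 24 weeks, the lowest after quantile normalization. In the tumor against TRAMP prostate, ribosomal protein genes had 0 lower and 13 higher of 75 (median 0.24), while the 86 oxidative phosphorylation genes had 4 lower and 0 higher.

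**Figure D5:**
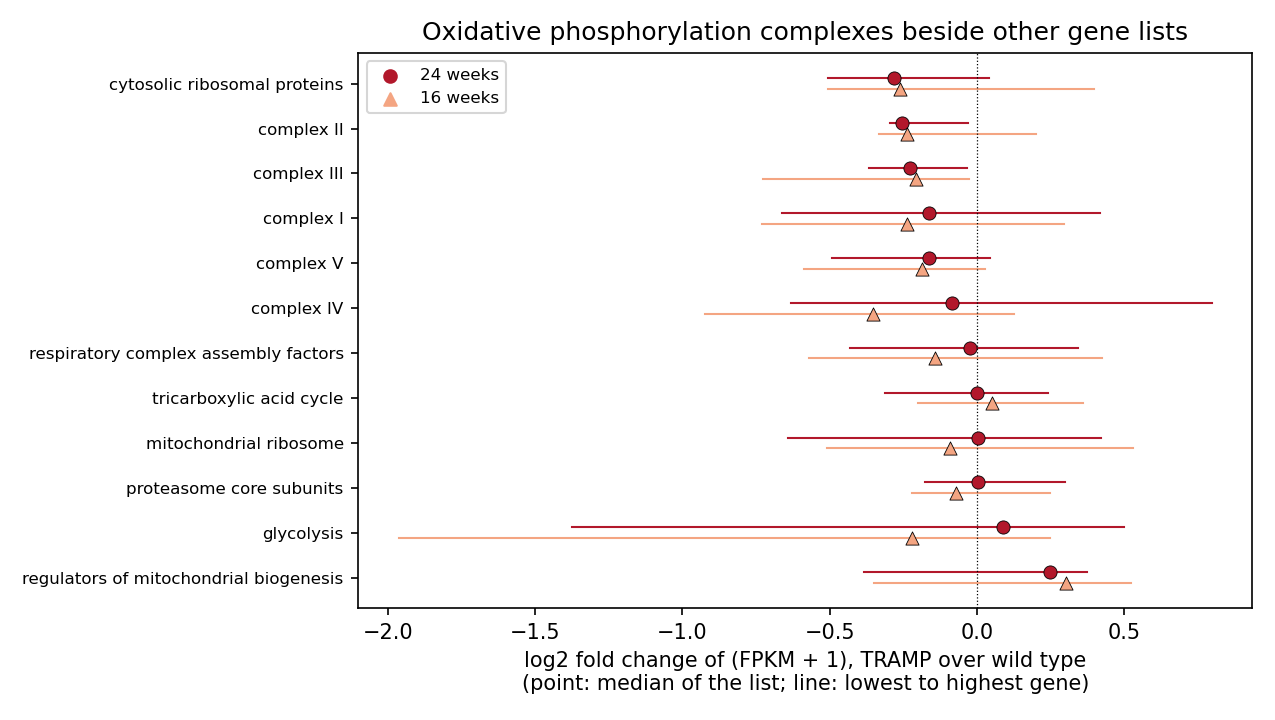
Median log2 fold change of (FPKM + 1), TRAMP over wild type (points, x axis), with the lowest and highest gene (lines), for the 5 complexes and 7 other gene lists (rows), at 24 weeks (circles) and 16 weeks (triangles). On the deposited scale the medians of the 5 complexes and the ribosomal protein list lie below 0 at both ages, and that of the regulators above 0 (0.25 and 0.30); on a common sum complexes I, IV and V lie above 0 at 24 weeks.

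Some of these genes cannot be counted cleanly. Among the 83 genes with a GENCODE M21 coding sequence that are not tissue forms, 21 have another annotated gene or pseudogene with at least 95% identity over at least 50% of that sequence, and reads shared with such copies may have been split or dropped. They include Cox7a2l, Uqcr11, Ndufb4, Ndufb11, Cox6c, Cox7b, Atp5g1, Atp5g2 and Atp5h among the genes named above, so their levels are uncertain; Ndufs5, listed at 0 throughout, has 1 such copy, and Atp5l has 8. Median levels were 113.0 FPKM for genes with a copy and 113.1 FPKM for the other 62, but the low ends differed in kind. Under 25 FPKM lay 4 of the 21 and 8 of the 62. The 4 were the subunit genes Ndufs5, Atp5g2, Ndufb4 and Ndufab1, while most of the 8 were Ndufaf assembly factors. Whether copies lowered these levels was not tested. Exons of 25 of the 92 overlap those of another gene, 23 on the opposite strand and 4 on the same, among them Ndufs1, Ndufb9, Ndufb11, Cox5a and Atp5a1; whether counting used strand is not given in the sources used here, so reads there cannot be told apart. Ndufa1, Ndufa7, Cox4i1, Ndufaf2, Uqcrq and Sdha have neither a close copy nor such an overlap. Atp5sl matched no GENCODE M21 gene by symbol, and no other name was tried, so neither copies nor overlaps were sought for it.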

How the data were processed

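RNA from mouse prostate or tumor was sequenced, and 1 table of FPKM per gene was deposited for each of the 12 libraries. FPKM values were made by the authors and deposited with up to 4 decimals; HISAT2, Picard, featureCounts, DESeq2 and the mm10 build are named, per the submitters' processing notes. The sources used here give no annotation, strand setting or read total for them, so the depth is unknown.

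From these values log2(FPKM + 1) was computed, and the 13375 genes that averaged 0.5 FPKM or more were fitted with limma (limma 3.58.1, R 4.3.3): 7 group means over the 12 libraries, an intensity trend, 5 residual degrees of freedom, two-sided, Benjamini-Hochberg adjustment over all genes. A call is an adjusted p under 0.05, and a fold change refers to FPKM + 1, so that of a low gene is understated. Groups of 1 library (16-week wild type and tumor) are assumed to vary like the others. Groups came from the sample titles and characteristics. Alternatives were other pseudocounts (0.1 and 5), filters (none and a mean of 2 FPKM) and scalings, corrections for gene length and GC content, a fit of only the groups compared, a replicate block, and leaving out each replicate; the common sum, centring on the members' median and the 24-week controls were added after seeing the data. The fit was tested on simulated data with known changes.

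The members and gene lists were chosen with earlier results of these data known. Values per library are given for core subunits of each complex, genes with tissue forms, and up to 4 called genes per comparison and direction with the largest change; other genes named were chosen after their values were seen. Sequence copies were sought with BLAST+ 2.17.0 in GENCODE M21, and 91 of the 92 symbols matched that annotation (Atp5sl did not). Promoter windows and their coordinates are from RefSeq (GRCm38.p6). Subunits encoded in mitochondrial DNA are not used here.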

Additional observations from a re-analysis of the deposited data

How the results depend on the processing

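Of the counts of called genes under the alternatives 42 moved by over 1.5 times and 226 did not. The 226 include counts of 0 in both the main fit and the alternative, as in every PEITC comparison. They therefore overstate how stable the calls were. Of the calls on genes picked by the naming rule 491 values kept the call, 97 lost it and 1 reversed. The reversed one was Atp5a1 at 24 weeks, with a log2 fold change of 0.038 after quantile normalization, and the cause was not tested. Over all called genes, 7 of 39 calls at 24 weeks, 2 of 35 at 16 weeks, and 0 in the tumor comparisons changed sign under at least 1 of the 8 scalings, among them Uqcrc2 (up to 0.01) at 24 weeks and Ndufb9 and Sdhc (each up to 0.01) at 16 weeks. For TRAMP against wild type at 24 weeks, lower calls numbered 9 after quantile normalization, 14 when scaled without the 50 most abundant genes, 18 with only the groups compared, 6 on a common sum and 11 when centred on the tested members, and higher calls 11 after quantile normalization and 15 on a common sum. At 16 weeks lower calls numbered 18 (quantile), 20 (50 most abundant left out), 12 (only the groups compared), 13 (common sum) and 9 (centred), and higher calls 0 (median-ratio scaling), 4 (quantile), 0 (only the groups compared), 5 (common sum) and 5 (centred). In the tumor against TRAMP prostate lower calls numbered 0 with only the groups compared and 0 when centred, and higher calls 1 without the filter. In the tumor against wild type lower calls numbered 20 (quantile), 14 (common sum) and 9 (centred), and higher calls 10 (quantile), 2 (50 most abundant left out), 4 (no filter), 0 (only the groups compared), 7 (common sum) and 7 (centred). The difference of the TRAMP effect between ages gave 2 calls without the filter. Of all 20788 genes then fitted, 889 were higher in the tumor against TRAMP prostate and 3984 against wild type. For the difference of the TRAMP effect 36 of them were lower and 261 higher. Counts from fits with 1 replicate left out are not listed in this paragraph, though some of them moved as well. Leaving out 1 replicate at a time gave medians of -0.23 to -0.10 for TRAMP against wild type at 24 weeks and -0.27 to -0.24 at 16 weeks. In the tumor they were -0.07 to 0.02 against TRAMP prostate and -0.19 to -0.16 against wild type. For PEITC against control diet they were -0.09 to 0.00 at 24 weeks and -0.01 to 0.04 at 16 weeks. For the difference of the TRAMP effect between ages they were 0.02 to 0.11, against 0.07 in the main fit.

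Replicate numbers in the titles were not used as pairs in the main fit. Deviations of same-numbered libraries correlated at -0.31 (PEITC and control at 16 weeks), 0.25 (the same at 24 weeks) and 0.24 (PEITC at both ages). They correlated at 0.01 for wild type and TRAMP at 24 weeks and -0.35 for TRAMP at both ages. With 2 libraries a group these values cannot show whether the numbers mark a shared batch. With the number as a replicate block, lower and higher calls were 33 and 2 at 24 weeks, with 1911 and 2075 of all 13375 genes. At 16 weeks they were 31 and 0 (1879 and 2112 of all genes). In the tumor they were 1 and 1 against TRAMP prostate (446 and 456 of all genes) and 33 and 1 against wild type (3168 and 3241). PEITC gave 0 calls (37 and 28 of all genes at 24 weeks), and its 24-week median was then 0.01. With no read totals in the files, no counting interval could be given, and with at most 2 libraries a group the number of libraries limits the precision.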
